A study of Mus musculus with 4 samples.

Results

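Transporters of the solute carrier families Slc1, Slc2, Slc3, Slc7, Slc16, Slc36, Slc38 and Slc43 carry amino acids, glucose and other sugars, lactate and related small molecules across the membranes of the cell. The members were found by gene symbol alone, as all genes of these families with a single symbol in the platform annotation. They were 67 of 19938 named genes, on 70 probe sets, and each of the 3 members with more than 1 is represented by its highest probe set. Gene expression was measured on 4 microarrays of CCR6+ group 3 innate lymphoid cells (ILC3), lymphocytes without rearranged antigen receptors. The cells were sorted as CD127+ CD90.2+ CCR6+ ST2- from mesenteric lymph nodes of C57BL/6 mice that the series title calls naive, with no treatment given, and all 4 samples, numbered 1 to 4, form 1 group. The age of the mice, and whether the samples came from different animals or pools, are not stated by the labels, so the spread given below is that between these samples and may be technical.

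Lymphocytes take up glucose chiefly through carriers of the Slc2 (GLUT) family and export the lactate made from it through monocarboxylate transporters of the Slc16 (MCT) family, several of which need the chaperone basigin or embigin to reach the cell surface. Glutamine and other neutral amino acids enter through sodium-dependent carriers such as Slc1a5 and the Slc38 (SNAT) family. Large neutral amino acids such as leucine are exchanged by heterodimers of the heavy chain CD98, encoded by Slc3a2, and a light chain of the Slc7 family. Amino acids inside the cell and inside its lysosomes are read by the kinase complex mTORC1, and activated lymphocytes are known to increase several of these carriers.

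The deposited values are log2 levels on the RMA scale, and each is relative to the other probe sets of its array. Because binding differs from one probe set to another, levels were read against background. The order of genes by level is not read as an order of RNA amounts, although mean level served in part to choose the genes named. Background was 1241 genes of chemosensory receptors, and a gene is called above background where its detection p, the share of these genes with a mean as high, was under 0.05 after Benjamini-Hochberg adjustment over all named genes. The lowest mean so called was 6.37. Of 15 genes of other organs (the muscle creatine kinase Ckm is one), 6 were called, with values of up to 7.42, so each called member that did not exceed them on every array is described as such. Il7r, Thy1 and Ccr6, the 3 genes of the positive sort markers, were above background. The gene of ST2, which the sort excluded, was not in the list and was not examined. Of the ILC3 markers, 9 of 9 measured were above background, with list means between 10.46 and 10.65 on the 4 arrays. The median of all probe sets lay between 5.99 and 6.03. B cell markers, of which 10 of 11 measured were above background, had list means of 8.61, 7.76, 8.77 and 7.65 on arrays 1 to 4. Of 12 T cell markers 10 were called, with list means of 7.50, 7.46, 7.73 and 7.45. Among other cells of a node, 4 of 9 NK cell markers, 4 of 14 of dendritic cells and macrophages, 5 of 11 of stroma and endothelium and 1 of 3 of erythroid cells were called. Of all named genes 46.2% were called, so counts near or below that share do not show that such cells were present. Neutrophil markers were called in 0 of 8 cases by the detection test and by limma, and 1 had an unadjusted p under 0.05. What share of each transporter's level came from such cells was not tested, and in these bulk samples fewer cells of a type and less RNA per cell cannot be told apart.

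Of the 67 transporter genes, 20 (29.9%) were above background, against 46.2% of all named genes. Each of the 20 also lay above the 95th percentile of the background genes on every array, and 9 (Slc1a5, Slc2a1, Slc2a6, Slc3a2, Slc7a1, Slc38a1, Slc38a2, Slc38a9 and Slc38a10) lay above every other-organ gene on every array, a reading that 24.1% of named genes met. The median level of the 67 was 5.67, against 6.16 over all named genes and 4.25 over the background genes. A smaller share of these transporters than of named genes at large was thus called, and each of the 8 families had a called gene. A gene that was not called is not shown to be unexpressed, since a probe set can bind poorly. By family, 1 of 7 Slc1, 4 of 12 Slc2, 1 of 2 Slc3, 3 of 15 Slc7, 3 of 13 Slc16, 1 of 4 Slc36, 6 of 11 Slc38 and 1 of 3 Slc43 genes were called. The calls moved with the rule at the margin. Lying above the 95th percentile of the background genes on each array was a rule that took 28 members (54.4% of named genes). limma's one-sided test against that percentile took 27 (54.0% of named genes). An unadjusted detection p under 0.05 was met by 30 members and by 11443 of the 19938 named genes. The members that both limma and the percentile took, beyond the 20, were Slc1a7, Slc2a9, Slc7a7, Slc7a10, Slc16a8, Slc36a2 and Slc43a3, and the percentile also took Slc16a4.

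**Figure D1:**
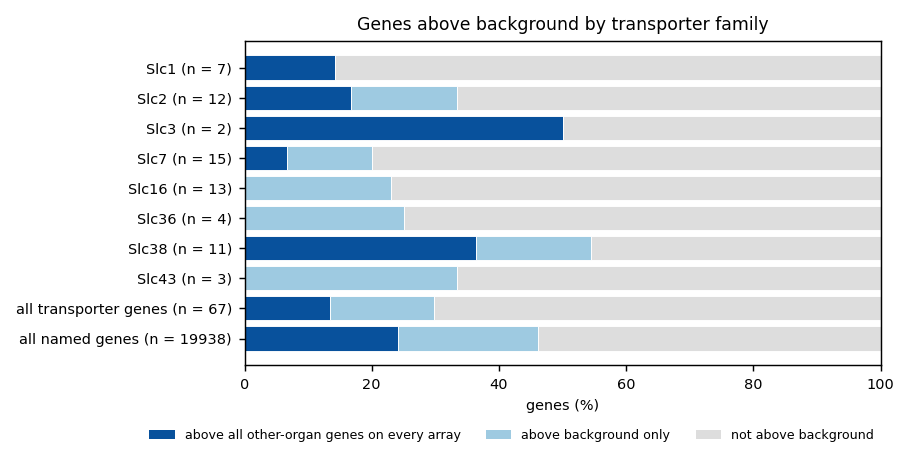
Share of genes (x axis, %) in each transporter family, in all 67 transporters and in all named genes that lay above every other-organ gene on every array, above background only, or not above background. Slc38 had 6 of 11 genes above background, and Slc16 none above every other-organ gene.

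**Figure D2:**
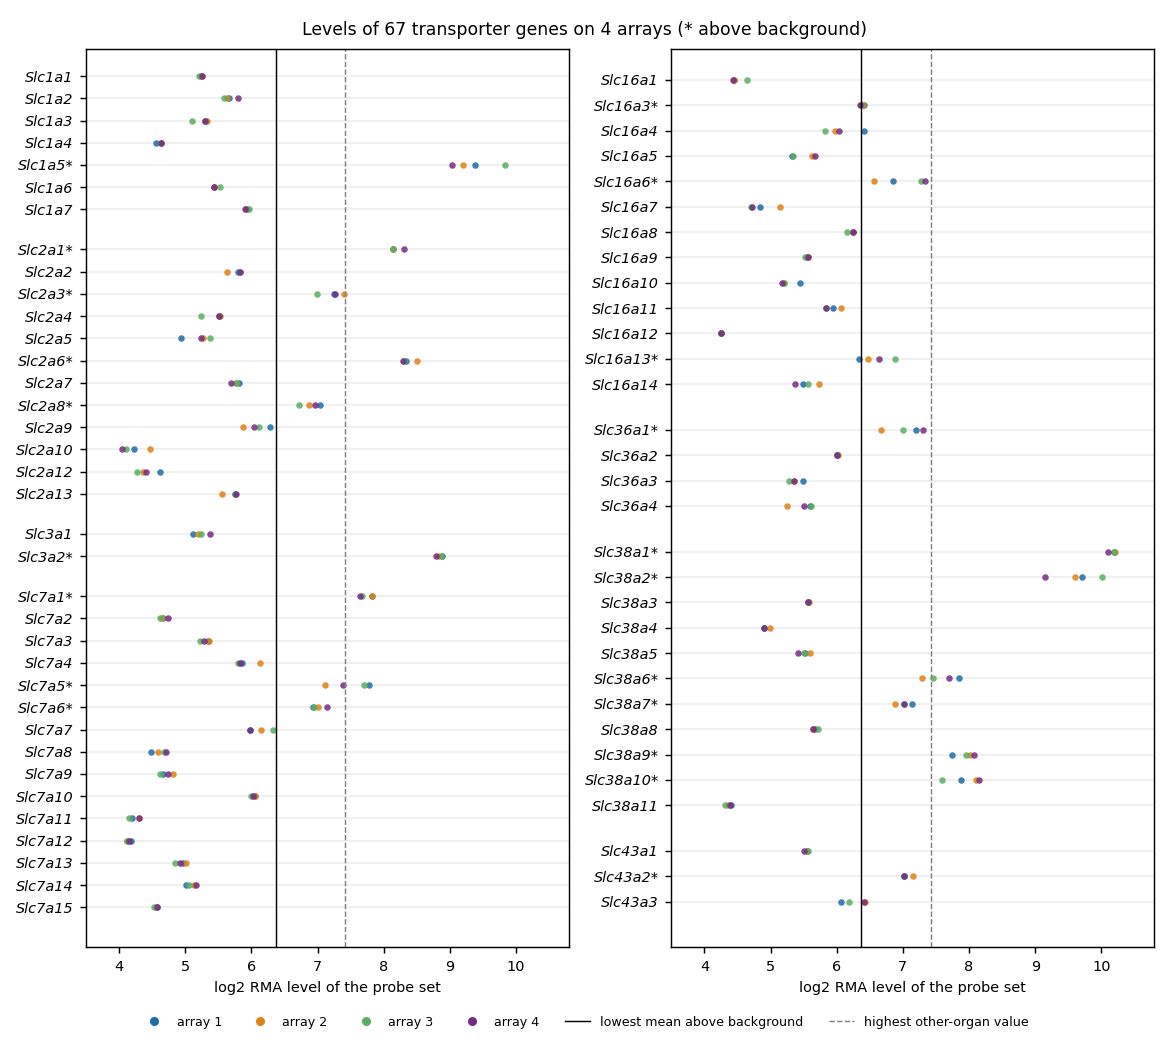
Log2 level (x axis) of each transporter gene on each of the 4 arrays (points), by family. The solid line is the lowest mean called above background, 6.37, and the dashed line the highest value of the other-organ genes, 7.42.

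The carriers of glutamine and small neutral amino acids were examined first. Slc38a1, which encodes the sodium-coupled carrier SNAT1, was at 10.18, 10.21, 10.18 and 10.10 on arrays 1 to 4 (mean 10.17 ± 0.05, SD, n = 4, as for all means that follow). Slc38a2, which encodes SNAT2, was at 9.70, 9.61, 10.004 and 9.14 (9.61 ± 0.36). Slc1a5, which encodes ASCT2, an exchanger of glutamine for other neutral amino acids, was at 9.37, 9.20, 9.83 and 9.03 (9.36 ± 0.34). All 3 had an adjusted detection p of 0.0108, the smallest that the background genes allow, and stood above the highest other-organ value on every array. The second probe set of Slc38a1 was lower, at 8.44, 8.35, 8.46 and 8.54, and also above that value. Slc38a1 hardly differed between arrays, while Slc38a2 and Slc1a5 were both highest on array 3 and lowest on array 4. Slc1a4, a close relative of Slc1a5 that encodes the alanine, serine and cysteine carrier ASCT1, was not called, at 4.57, 4.63, 4.63 and 4.63 (4.62 ± 0.03), with an adjusted p of 0.377. The other 5 Slc1 genes encode the glutamate carriers of neurons, glia and kidney, and none was called, with means from 5.24 for Slc1a1 to 5.93 for Slc1a7. Slc1a2 was at 5.67 ± 0.09, Slc1a6 at 5.46 ± 0.04, and Slc1a7 was taken by limma and by the 95th percentile.

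The remaining Slc38 genes divided into those above background and those not. Slc38a9 encodes a lysosomal membrane protein that signals arginine to mTORC1, and it was at 7.74, 8.02, 7.95 and 8.08 (7.95 ± 0.15). Its other probe set was at 7.07, 7.23, 6.75 and 6.72, within the range of genes of other organs, and the mean of both probe sets, unlike the higher one, was not above all of these. Slc38a10 was at 7.87, 8.11, 7.59 and 8.15 (7.93 ± 0.26). Slc38a6 was at 7.84, 7.29, 7.45 and 7.69 (7.57 ± 0.25). Slc38a7, a lysosomal glutamine exporter, was at 7.13, 6.88, 7.01 and 7.01 (7.01 ± 0.10), and lay, as Slc38a6 did on array 2, within the range of the other-organ genes. All 4 genes were above background, with adjusted p between 0.0142 and 0.0226. The 5 Slc38 genes that were not called included Slc38a8 at 5.67 ± 0.04, Slc38a3, a carrier of liver and kidney, at 5.57 ± 0.01, Slc38a11 at 4.36 ± 0.03 and Slc38a5 at 5.51 ± 0.08.

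Slc38a1, Slc38a2 and Slc38a4 are neighbours on mouse chromosome 15, with no other protein-coding gene between them in the RefSeq annotation of GRCm38.p6. Slc38a4, an amino acid carrier known from liver, was at 4.90, 4.998, 4.90 and 4.90 (4.93 ± 0.05, adjusted p = 0.261), so a gene that was not called lay beside Slc38a2, which was above every other-organ gene. The 200 bases before the annotated start of Slc38a2 and 1 of the 3 annotated starts of Slc38a4 are shown because the genes are neighbours with unlike calls. They are from RefSeq's GRCm38.p6, at chr15:96699729-96699928 and chr15:97055957-97056156, both on the minus strand, and capitals mark CpG dinucleotides.
Slc38a2: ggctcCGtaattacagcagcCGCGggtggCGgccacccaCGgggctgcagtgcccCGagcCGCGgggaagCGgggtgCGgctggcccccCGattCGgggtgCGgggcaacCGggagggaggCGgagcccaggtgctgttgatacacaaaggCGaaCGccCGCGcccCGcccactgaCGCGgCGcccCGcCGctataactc
Slc38a4: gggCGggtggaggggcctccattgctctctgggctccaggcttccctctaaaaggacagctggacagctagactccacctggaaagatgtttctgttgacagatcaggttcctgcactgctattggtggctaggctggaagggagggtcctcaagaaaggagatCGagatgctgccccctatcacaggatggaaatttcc
The Slc38a2 stretch held 25 CpG and the Slc38a4 stretch 2. In all, 6 pairs of members were next to each other among protein-coding genes. Both genes were above background in 1 pair (Slc38a1 and Slc38a2), 1 gene in 3 pairs (Slc38a2 and Slc38a4, Slc36a2 and Slc36a1, Slc16a11 and Slc16a13) and neither in 2 (Slc36a3 and Slc36a2, Slc2a5 and Slc2a7).

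Exchangers of the CD98 type followed. Slc3a2, the CD98 heavy chain, was at 8.88, 8.84, 8.87 and 8.80 (8.85 ± 0.04, adjusted p = 0.0142), one of the smallest spreads among the called members. Slc3a1, the heavy chain rBAT of kidney and gut, was at 5.23 ± 0.11 and was not called. Of 6 light chains known to pair with CD98, Slc7a5 and Slc7a6 were above background. Slc7a5, the leucine and tryptophan exchanger LAT1, was at 7.78, 7.12, 7.70 and 7.39 (7.50 ± 0.30, adjusted p = 0.0179). Slc7a6, the y+LAT2 exchanger of cationic for neutral amino acids, was at 6.93, 7.004, 6.95 and 7.14 (7.01 ± 0.10, adjusted p = 0.0226), within the range of the other-organ genes. Slc7a5 differed between arrays by 0.66 log2 units, lay below the highest other-organ value on arrays 2 and 4, and was higher on arrays 1 and 3, which also had the higher B cell markers. The other 4 light chains were not called, although limma and the 95th percentile took Slc7a7 and Slc7a10. Slc7a7, known from epithelium and macrophages, was at 6.11 ± 0.16, Slc7a10, a carrier of small neutral amino acids, at 6.03 ± 0.03 and Slc7a8, which encodes LAT2, at 4.62 ± 0.11.

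The cystine importer xCT, which supplies cysteine for glutathione, is encoded by the sixth light chain, Slc7a11. It was at 4.20, 4.30, 4.16 and 4.31 (4.24 ± 0.07, adjusted p = 0.557), near the median of the background genes. Its promoter is shown because it holds the letters TTGCATCA, the composite site that the stress factor ATF4 and C/EBP proteins are known to bind, on both strands (TGATGCAA on the strand printed), and Atf4 itself was above background. The bases are from RefSeq's GRCm38.p6, chr3:50443627-50443686 on the minus strand, from 73 to 14 bases before the annotated start, and capitals mark the matches.
Slc7a11: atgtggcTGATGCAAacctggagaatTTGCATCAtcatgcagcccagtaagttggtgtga
Such a match, on either strand, was in the 300-base windows (250 before to 50 after a start) of 3 of the 50 members that RefSeq's table held, and in 1.03% of all genes with a window. The other 2 were Slc1a4 and Slc7a7, where the match spans an annotated start. All 3 belong to the 36 matched members that were not above background, and 0 of the 14 above background had one. The called members Slc1a5, Slc2a3, Slc7a5, Slc16a6, Slc16a13 and Slc38a1 had no window and were not searched. Bases outside the windows were not searched in any gene. A match describes letters and not binding.

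Among carriers of cationic amino acids, Slc7a1, the arginine and lysine carrier CAT1, was at 7.82, 7.82, 7.68 and 7.65 (7.74 ± 0.09, adjusted p = 0.0161), above every other-organ gene on every array. Slc7a2, which serves arginine uptake of macrophages, was at 4.67 ± 0.05, and Slc7a3 at 5.31 ± 0.06. Of the CAT genes Slc7a1 to Slc7a3, Slc7a1 alone was called. The remaining Slc7 genes, among them Slc7a4 at 5.90 ± 0.15 and the kidney carrier Slc7a9 at 4.71 ± 0.09, were also not called. Of the Slc43 genes, Slc43a2, the carrier LAT4 of large neutral amino acids, was at 7.02, 7.15, 7.02 and 7.02 (7.05 ± 0.06, adjusted p = 0.0226), within the range of the other-organ genes. Slc43a3, a carrier of purine nucleobases, was just outside the threshold at 6.06, 6.43, 6.19 and 6.41 (6.27 ± 0.18, adjusted p = 0.0521), and was called without array 1, at 6.34. Slc43a1, which encodes LAT3, was at 5.54 ± 0.03. The proton-coupled carrier PAT1 of lysosomes, Slc36a1, was at 7.20, 6.67, 7.01 and 7.30 (7.04 ± 0.28, adjusted p = 0.0226), also within that range. By the detection test Slc36a2, Slc36a3 and Slc36a4 were not called, at 6.004 ± 0.0086, 5.37 ± 0.09 and 5.49 ± 0.17.

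Of the 12 genes of the glucose carrier family Slc2, which include a fructose and a urate carrier, 4 were above background. Slc2a1, the general glucose carrier GLUT1, was at 8.14, 8.15, 8.14 and 8.30 (8.18 ± 0.08, adjusted p = 0.0142). Slc2a6, which encodes GLUT6, a carrier held largely inside the cell, was at 8.34, 8.51, 8.31 and 8.29 (8.36 ± 0.10, adjusted p = 0.0142). Both lay above every other-organ gene on each array and differed little between arrays. Slc2a3, the high-affinity glucose carrier GLUT3, was at 7.25, 7.39, 6.99 and 7.27 (7.22 ± 0.17, adjusted p = 0.0220). Slc2a8, the intracellular carrier GLUT8, was at 7.04, 6.87, 6.72 and 6.95 (6.90 ± 0.14, adjusted p = 0.0259). Slc2a3 and Slc2a8 were called, but lay within the range of the other-organ genes. Carriers known from other organs were not called, among them Slc2a2, the GLUT2 of liver and pancreas, at 5.77 ± 0.10, the insulin-responsive Slc2a4 at 5.45 ± 0.14 and the fructose carrier Slc2a5 at 5.21 ± 0.19. Slc2a9, a urate carrier, was at 6.08 ± 0.17 and Slc2a7 at 5.76 ± 0.05, and neither was called, though limma and the 95th percentile took Slc2a9.

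Of the 13 genes of the monocarboxylate transporter family Slc16, 3 were called. Slc16a1, the lactate carrier MCT1, was at 4.44, 4.44, 4.65 and 4.43 (4.49 ± 0.10, adjusted p = 0.420) and was not called. Slc16a3, the lactate exporter MCT4, was just inside the threshold at 6.41, 6.39, 6.37 and 6.35 (6.38 ± 0.03, adjusted p = 0.0488). It was not called without array 3 or without array 4, at 6.39 each, or with olfactory receptors alone as background, or on arrays 2 and 4 alone, at 6.37. Slc16a7, the MCT2 carrier of lactate and pyruvate, was at 4.85 ± 0.20 and was not called. Slc16a6, known in zebrafish liver to export a ketone body, was at 6.85, 6.56, 7.28 and 7.34 (7.004 ± 0.37, adjusted p = 0.0226), and Slc16a13 at 6.34, 6.48, 6.88 and 6.64 (6.59 ± 0.24, adjusted p = 0.0411). None of the 3 called Slc16 genes lay above every other-organ gene on every array. Of the rest, Slc16a8 was at 6.22 ± 0.05, Slc16a4 at 6.06 ± 0.25 and Slc16a11 at 5.92 ± 0.11, and Slc16a12 was at 4.25, the same to all printed digits on each array. Bsg and Emb, which encode basigin and embigin, were above every other-organ gene, Bsg at 9.54, 9.37, 9.24 and 9.37 (9.38 ± 0.13) and Emb at 11.62, 11.58, 11.43 and 11.61 (11.56 ± 0.09).

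Differences between arrays were largest for Slc38a2, with a range of 0.86 log2 units (a fold of 1.82), Slc1a5, 0.79 (1.73-fold), Slc16a6, 0.78 (1.72-fold), and Slc7a5, 0.66 (1.58-fold). They were smallest for Slc16a3, at 0.060, and Slc3a2, at 0.085. The median SD of the 20 called members was 0.144, against 0.168 over all genes above background, and 9 of the 20 had an SD above 0.168. Slc38a2 and Slc1a5 had the same order of arrays, from array 3 through 1 and 2 to 4, which was also the order of the B cell and of the T cell list means. That order was held by 2 of the 20 called members and by 5.37% of all genes above background. Myc, which encodes a growth factor-induced transcription factor known to act on amino acid carriers, was at 9.28, 8.90, 9.79 and 8.04, in the same order. Of the 20, 3 had their lowest value on array 1, 5 on array 2, 5 on array 3 and 7 on array 4. On arrays 2 and 4 alone, which had the lower B cell values (a choice made with the data in view), 19 of the same 20 members were above background, all but Slc16a3, and the same number as on all arrays, 9, were above every other-organ gene. On those arrays 9 of 11 B cell markers and 10 of 12 T cell markers were still called, so the choice did not remove the signal of these markers. Whether that signal came from B and T cells or from the ILC3 themselves was not tested. B cells also carry several of these transporters, and their part in the differences was not tested, nor was that of Myc.

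**Figure D3:**
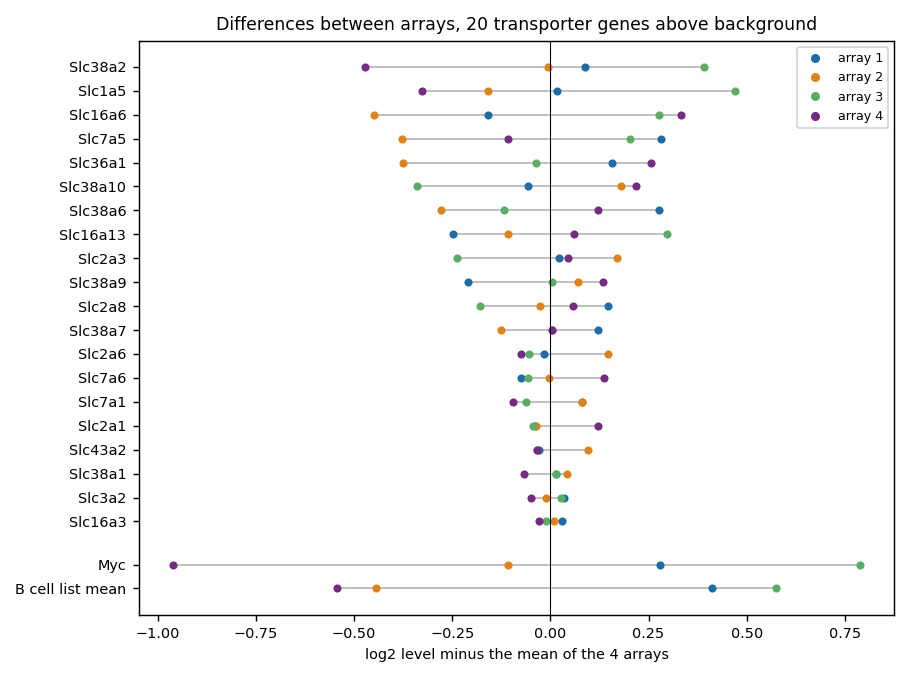
Log2 level on each array minus the mean of the 4 arrays (x axis) for the 20 transporter genes above background, ordered by range, with Myc and the mean of the B cell markers below. Slc38a2 and Slc1a5 were highest on array 3 and lowest on array 4, as were Myc and the B cell mean, and Slc3a2 and Slc38a1 hardly differed between arrays.

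Promoter windows were compared over the 14 members above background and the 36 not above background that RefSeq's table held. The median number of CpG dinucleotides per 300 bases was 17.5 in members above background and 11 in members not above background. Over all named genes it was 21 in genes above background and 7 in genes not above background. Every matched member above background had at least 10 CpG, Slc38a7 the fewest, while members not above background ranged between 1 and 42. The 42 were in Slc16a1, whose promoter was thus rich in CpG although its level was not above background. The GC box GGGCGG, on either strand, was in 10 of the 14 (71.4%) and 21 of the 36 (58.3%), against 68.7% of named genes above background, 38.6% of named genes not above background and 38.2% of all genes with a window. The E-box CACGTG was in 2 of the 14 (14.3%) and 7 of the 36 (19.4%), against 11.9% of named genes above background, 7.28% of those not above background and 8.09% of all genes with a window. TGACTCA, the AP-1 site, on either strand, was in 1 of the 14 (7.14%) and 2 of the 36 (5.56%), against 4.09%, 6.60% and 5.95% in the same sets. GC boxes hold CpG, so these counts overlap. Genes are not independent replicates, and the counts are given with no test.

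**Figure D4:**
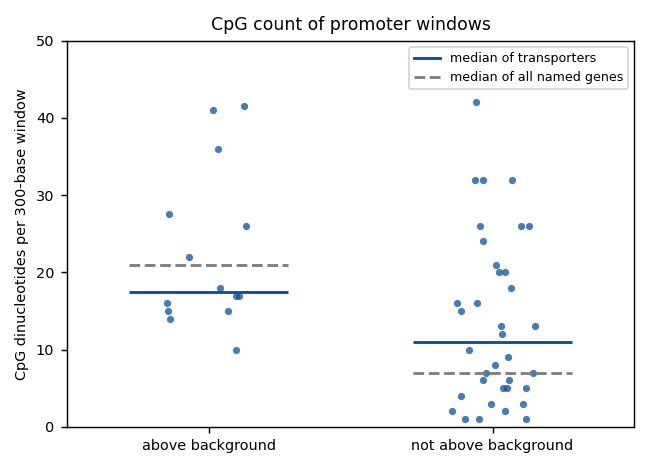
CpG dinucleotides per 300-base promoter window (y axis) of transporter genes above background (left, 14 genes) and not above background (right, 36 genes). Points are genes (the median over windows where a gene has several), solid lines the medians of the transporters, 17.5 and 11, and dashed lines the medians of all named genes, 21 and 7.

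Genes that act with these transporters were then examined, in 7 lists, beside the 46.2% of all named genes above background. The lists were written with earlier results of these data in view. Their shares therefore do not show that such genes are called more often than others. Chaperones and turnover factors were called in 12 of 12 cases, 8 of them above every other-organ gene. Txnip, which encodes an arrestin that removes GLUT1 from the surface and is known to respond to glucose, was at 10.76, 9.92, 10.76 and 10.43 (10.47 ± 0.39), and Nedd4, a ubiquitin ligase, at 9.46 ± 0.09. Of 24 genes of amino acid sensing by mTORC1, 22 were called, 12 of them above every other-organ gene. Sesn1, a relative of the leucine sensor Sestrin2, was at 9.88 ± 0.09. Sesn2, which encodes Sestrin2 and is in the amino acid response list, was not called, at 5.65 ± 0.11. The lysosomal Ragulator subunits Lamtor2, Lamtor4 and Lamtor5 were at 9.26 ± 0.06, 9.40 ± 0.30 and 9.23 ± 0.09. The Rag GTPases Rragb and Rragd, at 5.72 ± 0.10 and 4.82 ± 0.11, were not called.

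Of 16 amino acid response genes, 10 were called and 3 were above every other-organ gene. Atf4, which drives this response, was at 9.37, 9.15, 9.05 and 9.11 (9.17 ± 0.14). Ddit3, which encodes CHOP, was at 8.60 ± 0.24, Nupr1 at 9.41, 8.42, 8.32 and 7.93, and Cebpg at 7.36 ± 0.20. Trib3 at 6.07 ± 0.01 and the serine synthesis gene Psat1 at 6.16 ± 0.01 were not called, though limma took both. The other serine synthesis genes of the list, Phgdh and Psph, were called, at 6.51 ± 0.22 and 7.10 ± 0.19. Asns, asparagine synthetase and a known target of ATF4, was not called, at 4.78 ± 0.05. MYC and hypoxia factors were called in 11 of 14 cases, with 9 above every other-organ gene, among them Max at 10.72 ± 0.15, Mlxip, which encodes the glucose-responsive MondoA, at 9.68 ± 0.10, Myc at 9.005 ± 0.74 and Mxd4 at 8.82 ± 0.27. Epas1 at 6.36 ± 0.36 and Mlxipl at 5.95 ± 0.08 were not called.

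Enzymes that use the carried amino acids were called in 10 of 14 cases, with 5 above every other-organ gene. Odc1, the first enzyme of polyamine synthesis from ornithine, was at 11.50, 11.71, 11.55 and 11.63 (11.60 ± 0.09). Glul, glutamine synthetase, was at 9.21 ± 0.34, Glud1, glutamate dehydrogenase, at 9.11 ± 0.13 and Got2, an aspartate transaminase, at 8.55 ± 0.13. The branched chain transaminase Bcat1 at 5.78 ± 0.09 and the arginase Arg2 at 5.67 ± 0.26 were not called. Arg1, the other arginase, was called and had the widest SD of the 7 lists, at 6.83, 8.74, 7.63 and 7.48 (7.67 ± 0.79), highest on array 2. Lactate and pyruvate genes were called in 8 of 9 cases, with 3 above every other-organ gene. The lactate dehydrogenase genes Ldha and Ldhb were at 9.26 ± 0.13 and 8.61 ± 0.23, the mitochondrial pyruvate carrier gene Mpc1 at 8.77 ± 0.40 and Pdha1 at 7.60 ± 0.34, and the testis gene Ldhc at 4.79 ± 0.14 was not called. Glutathione genes were called in 6 of 9 cases, with 2 above every other-organ gene. Gpx4, a lipid peroxidase, was at 9.86 ± 0.13, Nfe2l2, which encodes the stress factor NRF2, at 9.74 ± 0.23, Gclc at 7.66 ± 0.43 and Gsr at 7.12 ± 0.28, while Cbs at 6.36 ± 0.05 and Gclm at 5.11 ± 0.24 were not called.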

How the data were processed

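Total RNA of sorted cells was labelled with biotin and hybridised to 4 arrays, per the labels. The deposited log2 values were made by the authors with RMA, per the submitters' processing notes, and its version is not given in the sources used here. RMA subtracts background, makes the arrays' distributions alike and summarises each probe set, and can give a gene the same value on several arrays, as for 16 of the 67 members, which makes the SD too small. The table held 35556 probe sets. Platform annotation gave 21789 of them 1 symbol and 1621 several, which were left out, and 12146 were not listed. Entrez identifiers of 21698 were found in RefSeq's table of GRCm38.p6, used to update symbols.

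The detection p was the rank of the gene's mean among the 1241 background genes, one-sided (1 added to both counts of the share), adjusted by Benjamini-Hochberg over 19938 genes, and cannot fall below 0.000805. limma 3.58.1 in R 4.3.3 tested levels against the 95th percentile of background genes of the same array. The calculations were tested on simulated data. The number of arrays limits the precision. Members, lists and rules were chosen with earlier results of these data known. All called members were named, with up to 3 uncalled members of highest mean per family and, in each list, up to 4 called and 2 uncalled genes of highest mean. Other genes named were chosen after their values were seen. Some genes of these families and lists are not analysed here.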

Additional observations from a re-analysis of the deposited data

Results flagged for a closer look

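In 12 of the 67 transporter genes, 1 array stood apart from the other 3, by a gap that, as a share of the range of the 4 arrays, exceeded Dixon's 95% critical value. The critical value is set so that about 1 in 20 genes is flagged by chance. In 5 of the 12, however, the other 3 arrays had the same value, so that any gap is flagged. The share of all named genes that meet this rule was not computed, so the 12 are not shown to be more than usual. Of these 12 genes, 2 were above background. Slc2a1 was at 8.30 on array 4, against 8.14 to 8.15 on the others, and Slc43a2 at 7.15 on array 2, against 7.02 on the others. The other 10 genes were not above background. Array 3 stood apart for Slc1a3 at 5.10, Slc1a6 at 5.53, Slc2a4 at 5.23, Slc16a1 at 4.65 and Slc16a8 at 6.15. Array 1 stood apart for Slc1a4 at 4.57 and Slc16a10 at 5.44, and array 2 for Slc2a13 at 5.55, Slc36a2 at 6.02 and Slc38a4 at 4.998. The widest gap was 0.281 log2 units, in Slc2a4.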

How the results depend on the processing

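The number of transporters above background was 19 to 21 when each array was left out, 19 with olfactory receptors only as background and 20 with the mean of a gene's probe sets or with arrays centred on their medians. It was 0 at an adjusted p under 0.01, because the smallest adjusted p is 0.0108, and 20 had an adjusted p under 0.05. Left-out arrays gave 9 to 10 members above all genes of other organs, a median level between 5.67 and 5.69, a median SD between 0.122 and 0.163, and 117 to 127 called genes over the lists, against 122 on all arrays. The detection test is limited by background genes that were themselves called, 27 of 1241. Members of low level can be missed: 8 that were not called exceeded, on each of the 4 arrays, the background's 95th percentile. No paired analysis was possible because the samples form 1 group.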
